A study of Mus musculus with 6 samples.

Results

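The cholesterol genes described here are 30 mouse genes of sterol synthesis, sterol sensing, intracellular transport and efflux, out of 20656 genes that the array probes name through an accession. They were taken by gene name, and each is given by its brightest probe, the one with the highest mean over all arrays. The set holds 18 synthesis enzymes, 5 regulators of the SREBP transcription factors, 2 transport proteins and 5 genes of the LXR and efflux side. All 30 were well above background on all 6 arrays, through 41 probes in all, with several probes for 11 genes and 1 probe for 19.

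Cells make cholesterol from acetyl-CoA, first through the mevalonate steps to farnesyl diphosphate and then through squalene and lanosterol. The genes of this route are targets of the SREBP factors, which are held in the endoplasmic reticulum by Scap and the Insig proteins and released when membrane sterol is low. When sterols are plentiful, oxysterols activate the LXR receptors, which drive the lipid exporters Abca1 and Abcg1. In the brain, cholesterol cannot be taken up from blood, so neurons depend on local synthesis and on lipoproteins made by astrocytes.

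Gene expression was profiled on 6 single-colour arrays, 1 for each group. Fibroblasts of ICR mouse embryos (E13.5), grown as primary cultures, were given adenoviral supernatants on 2 successive days and are labelled as neurons induced by Tet3, a dioxygenase that oxidises 5-methylcytosine. They were taken at 1, 3, 5 and 7 days post infection (dpi) and stand beside uninfected fibroblasts (MEF) and primary neurons of E13.5 embryos. The protocol moved infected cells to a low-glucose medium with 5% serum, and part of that medium was replaced by neuronal medium with 20 µM forskolin, an activator of adenylyl cyclase, on days 3 and 5 after the second infection. Whether the cells of 3 and 5 dpi were taken before or after a medium change was not given in the sources used here. No array holds cells with a virus lacking Tet3, so infection, Tet3 and medium cannot be told apart in any value below. How many embryos were pooled is not given either.

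Without replicates no groups could be tested against each other, the number of arrays limits the precision, and every difference describes a pair of arrays. A log2 level is the log2 signal of a probe minus the 75th percentile of its array, and levels of different probes are not set against each other. A gene is called higher or lower where the arrays differ at least 2-fold, and the scanner software's error for a member's difference was between 0.204 and 0.207 on the log2 scale, which leaves out the spread between cultures. MEF and 1 dpi shared 1 scan and the 4 later arrays shared the other, so comparisons of the later arrays with MEF or 1 dpi also cross scans. The 75th percentile signal lay between 1648 and 2415. The brightest Tet3 probe was 2.56-fold, 3.89-fold and 6.94-fold of its MEF signal at 1, 3 and 5 dpi and 1.23-fold of it on the array labelled 7 dpi, which is named by its label for that reason. Of the other 2 Tet3 probes, 1 was well above background at 1, 3 and 5 dpi and not in MEF or on the array labelled 7 dpi. It ran in the direction of the brightest probe, at 31.9-fold, 57.8-fold and 152-fold of its MEF signal at 1, 3 and 5 dpi and 0.995-fold at 7 dpi. These folds start from a MEF signal that was not well above background. The last probe did not follow and lay between 0.73-fold and 1.33-fold of its MEF signal on all Tet3 arrays.

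Upstream sequences are shown for 6 members, because the enzymes moved together and promoters of SREBP target genes are known to hold sterol regulatory elements beside boxes for the factor NF-Y. Each run is the 250 bases before the start site in RefSeq on GRCm38.p6, in the direction of the gene. Capitals mark the letters TCACNCCAC (a sterol regulatory element) and CCAAT (the NF-Y box, ATTGG on the other strand). Hmgcs1 and Idi1 stand for the mevalonate steps (chr13:119690101-119690350 on the plus strand and chr13:8885356-8885605 on the plus strand). Lss and Cyp51 stand for the sterol steps and fell most between 3 and 5 dpi (chr10:76531355-76531604 on the plus strand and chr5:4104698-4104947 on the minus strand). Insig1 is an SREBP regulator (chr5:28071162-28071411 on the plus strand), and Abca1 is the exporter that ran the other way (chr4:53159896-53160145 on the minus strand).
Hmgcs1: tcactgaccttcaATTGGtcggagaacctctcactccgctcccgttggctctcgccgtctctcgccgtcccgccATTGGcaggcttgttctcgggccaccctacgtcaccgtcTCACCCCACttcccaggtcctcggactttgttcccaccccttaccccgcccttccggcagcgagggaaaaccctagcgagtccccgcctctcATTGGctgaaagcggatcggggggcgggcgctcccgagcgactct
Idi1: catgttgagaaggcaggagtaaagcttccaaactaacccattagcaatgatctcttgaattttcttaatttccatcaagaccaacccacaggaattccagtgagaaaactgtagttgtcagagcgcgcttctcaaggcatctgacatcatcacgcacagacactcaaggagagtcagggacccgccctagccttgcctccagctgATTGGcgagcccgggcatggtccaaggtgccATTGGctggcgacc
Lss: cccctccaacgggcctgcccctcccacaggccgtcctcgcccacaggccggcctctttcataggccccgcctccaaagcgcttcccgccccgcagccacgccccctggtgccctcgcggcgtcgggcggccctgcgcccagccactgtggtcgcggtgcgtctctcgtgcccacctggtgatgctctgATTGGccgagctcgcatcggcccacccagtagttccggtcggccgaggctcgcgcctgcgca
Cyp51: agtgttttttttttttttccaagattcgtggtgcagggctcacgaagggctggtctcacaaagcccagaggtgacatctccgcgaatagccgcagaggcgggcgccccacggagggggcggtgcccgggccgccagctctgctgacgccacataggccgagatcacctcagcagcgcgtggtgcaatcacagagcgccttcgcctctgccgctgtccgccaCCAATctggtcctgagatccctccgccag
Insig1: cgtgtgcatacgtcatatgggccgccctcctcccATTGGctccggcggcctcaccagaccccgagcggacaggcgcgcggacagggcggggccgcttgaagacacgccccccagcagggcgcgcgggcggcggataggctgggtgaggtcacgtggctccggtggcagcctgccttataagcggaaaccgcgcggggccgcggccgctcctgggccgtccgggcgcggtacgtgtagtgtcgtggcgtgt
Abca1: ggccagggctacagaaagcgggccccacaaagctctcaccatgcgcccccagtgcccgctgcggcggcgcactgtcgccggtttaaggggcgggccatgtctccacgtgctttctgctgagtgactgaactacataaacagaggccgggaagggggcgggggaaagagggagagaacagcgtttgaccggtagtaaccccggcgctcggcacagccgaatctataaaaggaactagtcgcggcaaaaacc

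RefSeq windows, which add 50 bases after the start site, were matched for 24 of the 30 genes, and some genes have several. CCAAT on either strand was in 77.8% of the 18 windows of the synthesis enzymes and in 20.0% of the 5 windows of the LXR and efflux genes, against 37.4% of all 32851 windows. By gene, 14 of 15 enzymes with a window held it, all but Acat2, and of the LXR and efflux genes only Mylip did. The GC box GGGCGG was in 83.3% of the synthesis windows, against 35.7% of all windows. The sterol regulatory element in these exact letters was found in 1 member, Hmgcs1, whose match starts at -137 from the start site, and in 1.24% of all windows. The LXR repeat, a pair of AGGTCA repeats with a spacer of 4 bases and at most 2 mismatches, was found in Dhcr7 alone among the members and in 3.02% of all windows. Repeats with more mismatches were not counted, so a promoter without a match, that of Abca1 included, may still hold a weaker one. A match is a description of these letters and does not mark a bound site.

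The enzymes of cholesterol synthesis were highest at 3 dpi and lowest at 5 dpi among the fibroblast arrays. Of the 18, 16 had their highest level of these 5 arrays at 3 dpi, and 16 had their lowest at 5 dpi. With the neuron array included, 15 were still highest at 3 dpi, since Hmgcs1 was higher in neurons, and Tm7sf2 and Dhcr7 were highest on the array labelled 7 dpi. Their median level, with each gene set relative to its mean over the 6 arrays, was -0.08 in MEF, -0.06 at 1 dpi, 1.04 at 3 dpi, -0.65 at 5 dpi, 0.08 at 7 dpi and -0.36 in neurons.

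**Figure D1:**
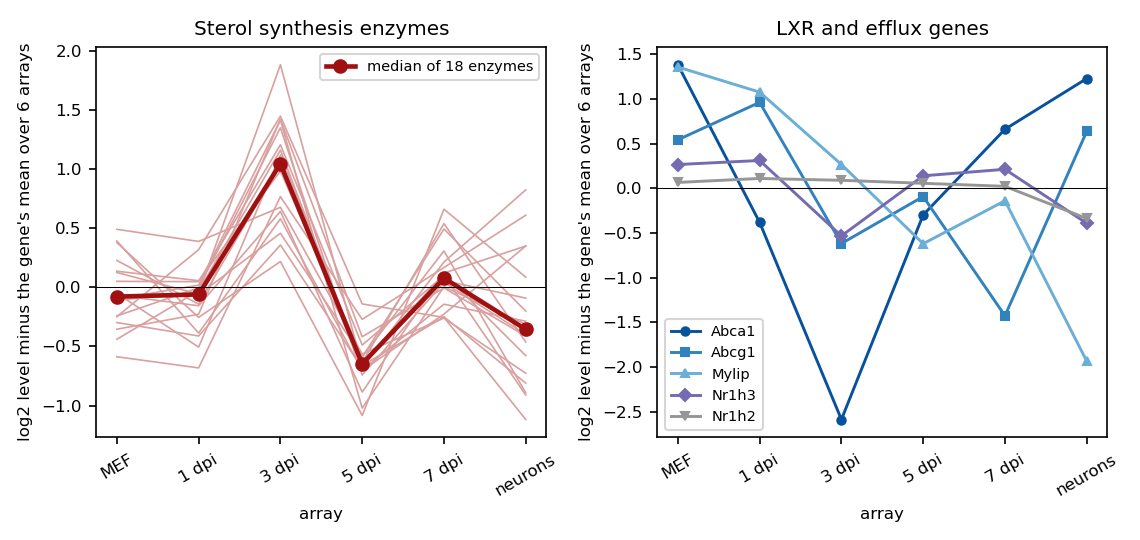
Log2 level of each gene minus its mean over the 6 arrays, for the 18 synthesis enzymes (left, with their median as a thick line) and the 5 LXR and efflux genes (right), against array; each point is 1 array. The median of the enzymes lies at -0.65 at 5 dpi and at 1.04 at 3 dpi, and Abca1 has its lowest point at 3 dpi.

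The clearest step lay between 5 and 3 dpi, which were read in the same scan. All 18 synthesis enzymes fell at least 2-fold at 5 dpi against 3 dpi, where 4.60% of all genes measured did so. The median difference of the 18 was -1.64, against -0.00 over all genes. The smallest fall was that of Acat2 (-1.04) and the largest that of Lss (-2.54), 5.83-fold. Over all 30 members 21 fell and 1, Abca1, rose, against 8.09% of all genes that rose. All 11 members with several probes had the same sign on each probe in this comparison.

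**Figure D2:**
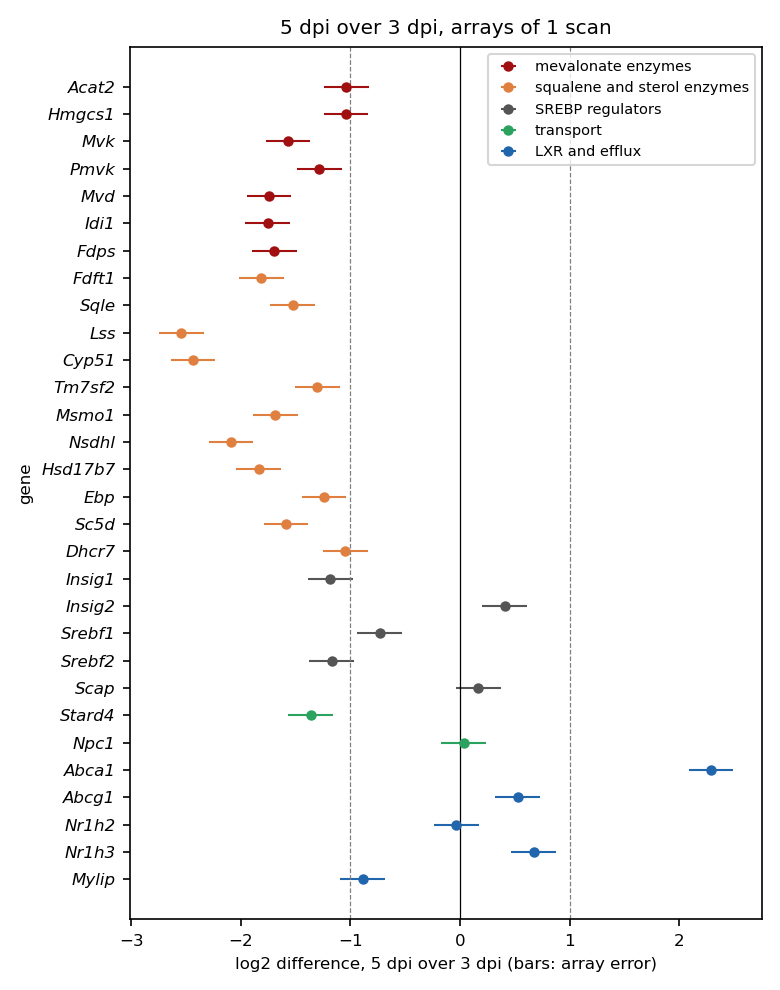
Log2 difference of 5 dpi over 3 dpi for the 30 members, coloured by role; points are differences between 2 arrays of the same scan, bars are the array error of about 0.204 and dashed lines mark 2-fold. The 18 synthesis enzymes lie between -2.54 and -1.04, and Abca1 lies at 2.29.

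In the mevalonate steps, 7 enzymes were followed and their median difference at 5 over 3 dpi was -1.57. Hmgcs1, the synthase that joins acetoacetyl-CoA and acetyl-CoA, had log2 levels of 3.24 in MEF and 3.13, 3.90, 2.86 and 3.76 at 1, 3, 5 and 7 dpi, and 4.37 in neurons. It was thus high at 3 dpi and on the array labelled 7 dpi, with neurons above both. Idi1, the isomerase that provides dimethylallyl diphosphate, had 2.38 in MEF, 1.93, 3.56, 1.80 and 2.97 from 1 to 7 dpi and 1.97 in neurons. Fdps, which makes farnesyl diphosphate, had 3.69 in MEF, 3.69, 4.84, 3.15 and 3.74 from 1 to 7 dpi and 2.73 in neurons. Both peaked at 3 dpi, and for Fdps the neuron array was the lowest. The mevalonate kinase Mvk had 1.03 at 5 dpi and 2.60 at 3 dpi, and its dimmer probe ran in parallel with -0.64 at 5 dpi and 1.15 at 3 dpi. The other 3, the thiolase Acat2, the phosphomevalonate kinase Pmvk and the decarboxylase Mvd, differed by -1.04, -1.28 and -1.74 at 5 over 3 dpi.

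In the squalene and sterol steps, 11 enzymes had a median difference of -1.68 at 5 over 3 dpi. Lss, the cyclase that makes lanosterol, had log2 levels of -1.03 in MEF, -0.97, 0.96, -1.58 and -1.17 at 1, 3, 5 and 7 dpi and -1.73 in neurons. Only the 3 dpi array stood apart, and the other 5 lay between -1.73 and -0.97. Cyp51, the lanosterol demethylase, had -0.30 in MEF, -0.18, 1.22, -1.22 and -0.19 from 1 to 7 dpi and -0.51 in neurons, so that 5 dpi was also below every other array. Fdft1, squalene synthase, had 1.73 in MEF, 2.14, 3.33, 1.52 and 2.23 from 1 to 7 dpi and 2.08 in neurons. A second, dimmer Fdft1 probe did not show that peak and had -5.19 in MEF and -5.47, -5.76, -6.62 and -5.99 from 1 to 7 dpi.

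The C4 sterol dehydrogenase Nsdhl fell by 2.09 at 5 over 3 dpi and the ketoreductase Hsd17b7, which works beside it, by 1.84. The C4 methyl oxidase Msmo1 fell by 1.68, the desaturase Sc5d by 1.59 and squalene epoxidase Sqle by 1.53. Ebp, the sterol isomerase, fell by 1.24 and Dhcr7, which reduces the last double bond on one route to cholesterol, by 1.05. Tm7sf2, a sterol C14 reductase, fell by 1.30 and had its highest level, 1.52, on the array labelled 7 dpi, against 1.24 in MEF.

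Set against MEF, the enzymes stood above at 3 dpi and below at 5 dpi. At 3 dpi 9 of 18 were at least 2-fold higher and none lower, against 16.3% of all genes higher and 9.83% lower, and the median was 1.04 against 0.20 over all genes. The 9 were Lss (3.97-fold, a log2 difference of 1.99), Hsd17b7 (1.78), Sc5d (1.70), Fdft1 (1.60), Nsdhl (1.59), Cyp51 (1.51), Acat2 (1.35), Idi1 (1.17) and Fdps (1.15). Only Tm7sf2 lay below MEF (-0.16), and after centring the arrays on their median 15 of 18 in place of 17 lay above MEF and 7 in place of 9 passed 2-fold, without Idi1 (0.87) and Fdps (0.86). With the mean over probes 9 passed, with Mvk in place of Fdft1, whose probes disagreed. Over all 30 members, 10 rose and 4 fell.

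At 5 dpi none of the 18 was higher than MEF and 3 were lower, Tm7sf2 (-1.46), Pmvk (-1.10) and Ebp (-1.05), against 17.9% of all genes higher and 8.31% lower. Their median was -0.57, where that of all genes was 0.20, and after median centring 8 of the 18 were at least 2-fold lower. Of all genes, 2654 were then lower, in place of 1523. Normexp correction and quantile normalization each left 2 of the 18 lower, Pmvk and Tm7sf2, without Ebp. At 1 dpi, in the same scan as MEF, none of the 18 passed 2-fold against MEF in either direction (5.37% of all genes were higher and 6.03% lower), with values from -0.78 for Pmvk to 0.57 for Sc5d. The first of these arrays on which the enzymes stood apart was therefore 3 dpi, where 11 of 18 were at least 2-fold higher than at 1 dpi, against 7.84% of all genes, and all 18 had positive differences, with a median of 1.14. In that comparison 13 of the 30 members rose and 2 fell, against 5.12% of all genes that fell. After median centring 6 of the 18 enzymes rose at 3 over 1 dpi, Acat2, Idi1, Lss, Cyp51, Nsdhl and Hsd17b7, and over all members 7 rose and 4 fell.

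**Figure D3:**
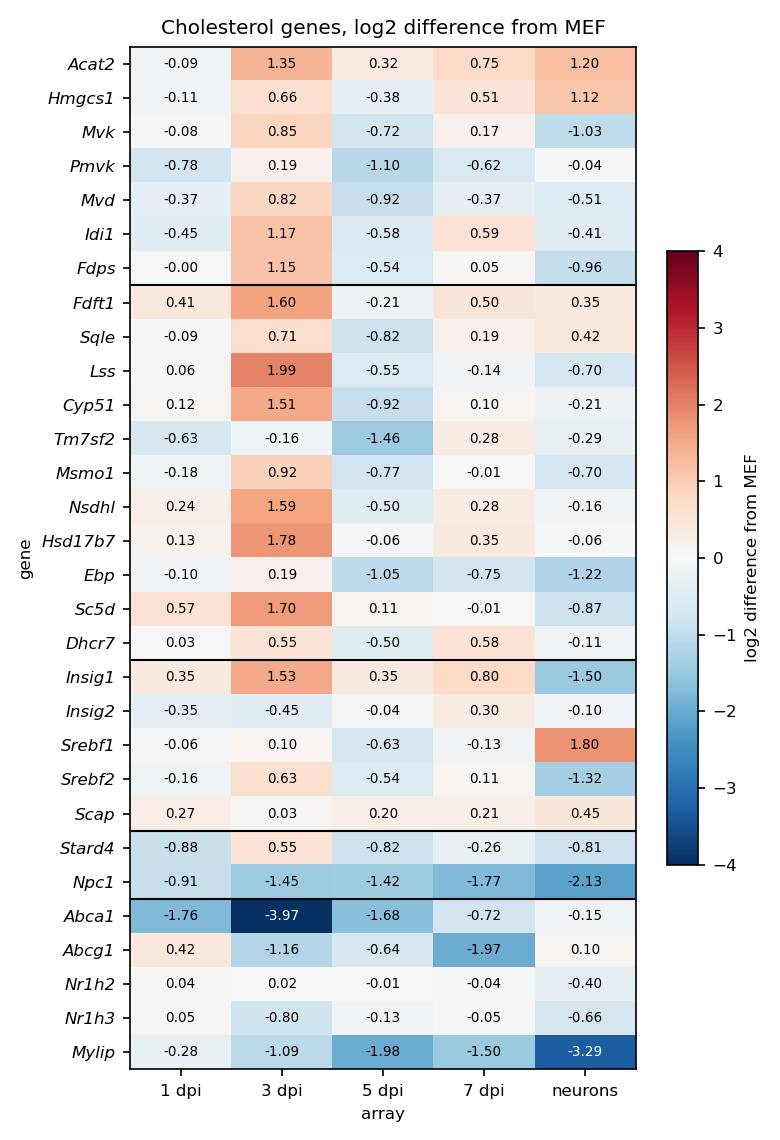
Log2 difference from MEF of the 30 members (rows, by role) on the 4 Tet3 arrays and the neuron array (columns); colour and number give the difference between 2 arrays. The column of 3 dpi holds the highest values of the enzymes, such as 1.99 for Lss, beside -3.97 for Abca1.

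On the array labelled 7 dpi the enzymes lay near MEF again. None of the 18 passed 2-fold against MEF, where 17.0% of all genes were higher and 6.84% lower, and the median of 0.18 turned to -0.26 after median centring, where Pmvk (-1.06) and Ebp (-1.19) were lower than MEF. With that centring 2151 of all genes were lower than MEF, in place of 1197. Against 5 dpi, in the same scan, 5 rose (Tm7sf2 1.74, Idi1 1.17, Dhcr7 1.08, Cyp51 1.03 and Sqle 1.01), none fell and the median was 0.73. Of all genes, 6.0% were higher and 4.71% lower in that comparison, and of the 5 enzymes 3 passed after median centring, while normexp correction left 2. Against neurons 3 were higher, Mvk (1.20), Fdps (1.01) and Idi1 (1.00), and none was lower, beside 13.9% of all genes higher and 19.6% lower, and 6 were higher after median centring. That centring also raised the count of all genes higher than neurons from 2578 to 4074. Normexp correction left Mvk and Fdps. Under quantile normalization Mvk and Dhcr7 were higher and Hmgcs1 was lower.

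Between primary neurons and MEF the direction of the enzymes depended on the scaling. Scaled to the 75th percentile, Acat2 (1.20) and Hmgcs1 (1.12) were higher in neurons, and Ebp (-1.22) and Mvk (-1.03) were lower, against 30.2% of all genes higher and 16.1% lower. The median of the 18 enzymes was -0.25 against 0.26 over all genes. Under quantile normalization Acat2 and Hmgcs1 stayed higher, but neither Ebp nor Mvk passed and Lss alone was lower. Normexp correction added Fdps to the lower enzymes. Neither Acat2 nor Hmgcs1 kept a 2-fold difference after median centring, where the median of all genes was -0.59. Then none of the 18 was higher in neurons and 10 were lower, with a median of -1.05, and over all 30 members none was higher and 17 were lower, in place of 3 and 6. The counts over all genes shifted the same way, with 2953 higher and 6845 lower after centring, in place of 5675 and 3015. The neuron culture also held RNA of other brain cells: the summed level of 6 astrocyte and radial glia markers was 127.9 in neurons and 2.72 in MEF, and that of the choroid plexus and ependyma markers Ttr and Foxj1 was 32.3 in neurons. Their part in the neuron values was not tested.

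**Figure D4:**
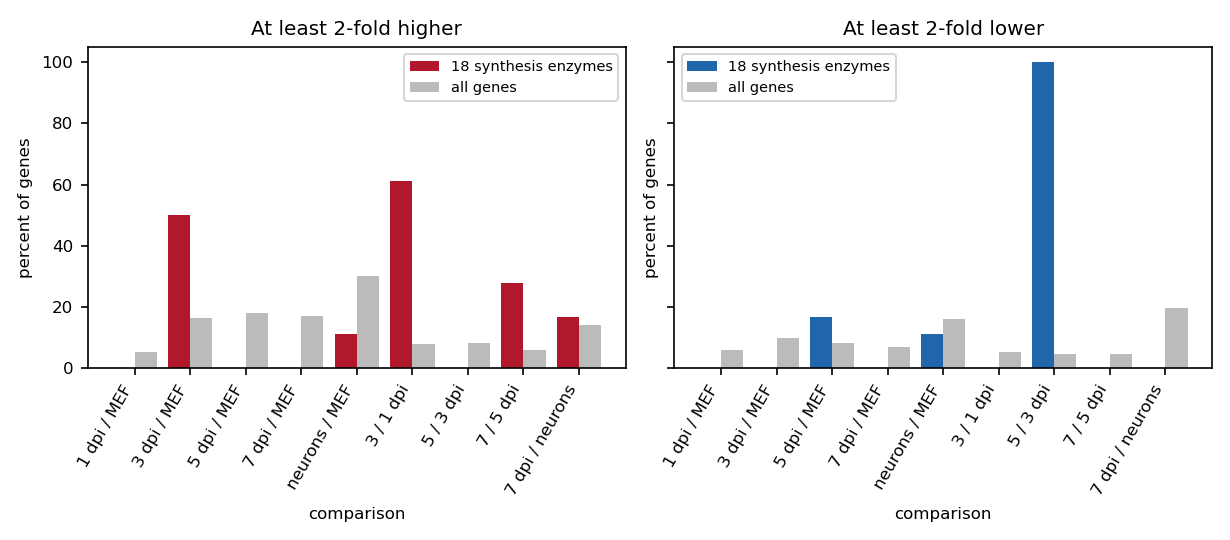
Percent of the 18 synthesis enzymes (coloured bars) and of all genes measured (grey bars) that were at least 2-fold higher (left) or lower (right), by comparison of 2 arrays. At 5 over 3 dpi all 18 enzymes were lower, beside 4.60% of all genes, and at 3 dpi over MEF 9 of 18 were higher, beside 16.3% of all genes.

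Among the regulators, Insig1 moved with the enzymes. Insig1, which retains the SREBP complex in the endoplasmic reticulum and is itself an SREBP target, had log2 levels of -1.63 in MEF, -1.28, -0.10, -1.28 and -0.83 at 1, 3, 5 and 7 dpi and -3.12 in neurons. It was 2.89-fold higher at 3 dpi than in MEF, 2.27-fold lower at 5 than at 3 dpi, and 2.82-fold lower in neurons than in MEF. Insig2, its relative, stayed within 2-fold in every comparison and had its lowest level, 0.45, at 3 dpi.

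Srebf2, the SREBP gene most tied to sterol synthesis, differed by -1.17 at 5 over 3 dpi on its brighter probe, with levels of -0.51 in MEF, -0.67, 0.12, -1.05 and -0.40 from 1 to 7 dpi and -1.83 in neurons. Its other probe fell from each array to the next from MEF to 5 dpi, with 1.19 in MEF, -0.28, -0.76, -1.72 and -1.65 from 1 to 7 dpi and -2.48 in neurons. Both probes gave a lower level at 5 than at 3 dpi and in neurons than in MEF. They had opposite signs at 3 dpi over MEF, at 3 over 1 dpi and at 7 dpi over MEF. Srebf1, the SREBP gene more tied to fatty acids, was within 2-fold of MEF on all Tet3 arrays (-1.03 at 5 dpi after median centring) and 3.48-fold higher in neurons (0.36, against -1.44 in MEF), a call lost after median centring. Scap, the escort protein that senses sterol, lay between 2.10 and 2.54 on all 6 arrays.

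The 2 transport genes parted. Stard4, a soluble sterol carrier and a known SREBP target, had log2 levels of 0.77 in MEF, -0.10, 1.32, -0.04 and 0.51 from 1 to 7 dpi and -0.04 in neurons, and so followed the enzymes with a rise of 1.42 at 3 over 1 dpi and a difference of -1.36 at 5 over 3 dpi. Npc1, which carries cholesterol out of the lysosome, had 0.30 in MEF, -0.61, -1.15, -1.12 and -1.47 from 1 to 7 dpi and -1.84 in neurons. It was below MEF on each later array, 2.74-fold at 3 dpi, 3.41-fold on the array labelled 7 dpi and 4.39-fold in neurons, with no step between 5 and 3 dpi (0.03).

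On the efflux side Abca1 ran opposite to the enzymes around 3 dpi. Abca1, the transporter that loads cholesterol onto apolipoproteins, had log2 levels of 3.56 in MEF, 1.80, -0.41, 1.88 and 2.84 at 1, 3, 5 and 7 dpi and 3.41 in neurons, from a single probe. It was 15.7-fold lower at 3 dpi than in MEF, already 3.40-fold lower at 1 dpi in the same scan as MEF, and 4.89-fold higher at 5 than at 3 dpi. The array labelled 7 dpi and neurons lay within 2-fold of MEF (-0.72 and -0.15), although after median centring Abca1 was lower at 7 dpi by more than 2-fold (-1.16).

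Abcg1, which exports cholesterol to lipoprotein particles, followed Abca1 only in part. Both fell at 3 over 1 dpi, Abcg1 by 1.58 and Abca1 by 2.21. They parted at 1 dpi over MEF (0.42 for Abcg1 and -1.76 for Abca1) and at 7 over 5 dpi (-1.33 and 0.96). The levels of Abcg1 were -0.69 in MEF, -0.27, -1.85, -1.32 and -2.66 from 1 to 7 dpi and -0.59 in neurons. It was 2.24-fold lower than MEF at 3 dpi and 3.92-fold lower on the array labelled 7 dpi, where Abca1 differed by -0.72. After median centring both were more than 2-fold below MEF there. Mylip, the ubiquitin ligase that degrades lipoprotein receptors and an LXR target, had 1.64 in MEF, 1.36, 0.55, -0.34 and 0.14 from 1 to 7 dpi and -1.65 in neurons. It was 9.80-fold lower in neurons than in MEF, and lower than MEF at 3, 5 and 7 dpi too. A second, dimmer Mylip probe differed from MEF by -0.72, -0.88 and -1.40 at 3, 5 and 7 dpi and by -3.48 in neurons. On that probe 3 and 5 dpi did not pass 2-fold.

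Of the LXR genes, neither passed 2-fold with the scaling used. Nr1h2, which encodes LXR beta, lay between 2.97 and 3.06 on MEF and the Tet3 arrays and at 2.61 in neurons. Nr1h3, which encodes LXR alpha, was at -1.44 at 3 dpi against -0.65 in MEF, a difference of -0.80 that became -1.10 after median centring. In neurons over MEF, centring took Nr1h2 to -1.20 and Nr1h3 to -1.46. Over the 5 genes of this side 3 fell at 3 dpi over MEF and none rose, beside 9.83% of all genes lower and 16.3% higher, with a median of -1.09 against 0.20 over all genes. It was 4 after median centring, with Nr1h3, and 2 with the mean over probes, without Mylip. At 5 over 3 dpi only Abca1 passed 2-fold, beside 8.09% of all genes higher and 4.60% lower, with a median of 0.53 over the 5 against -0.00 over all genes.

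The contrast of both sides, taken as the median of the 18 enzymes minus the median of the 5 LXR and efflux genes, was 2.13 at 3 dpi over MEF and -2.16 at 5 over 3 dpi. It ranged from 1.89 to 2.13 and from -2.16 to -2.02 under the other normalizations and filters run. It rests on 5 genes on the efflux side, of which Nr1h2 hardly moved.

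Several marker genes moved on the same arrays. The summed level of 13 macrophage markers was 365.74 in MEF, 67.03, 24.23, 4.61 and 3.41 from 1 to 7 dpi and 4.62 in neurons, and all 13 were at least 2-fold lower than MEF on every later array. Of all genes, 6.03%, 9.83%, 8.31% and 6.84% were lower from 1 to 7 dpi and 16.1% in neurons. Mrc1 and Stab1 were not well above background on the array labelled 7 dpi, so their differences there are bounds. Macrophages are rich in Abca1, Abcg1 and Npc1, and in bulk RNA fewer cells of a type and less RNA per cell cannot be told apart. From 3 to 5 dpi the macrophage sum fell from 24.23 to 4.61, and the level of Abca1 rose. The part of macrophages in the levels of Npc1, Abcg1 and Abca1 was not tested.

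Of 10 fibroblast markers, 4 were 2-fold or more below MEF at 3 dpi, Dcn (-2.71), Fbln1 (-2.48), Lum (-2.19) and Pdgfra (-1.64), and Thy1 was above it (1.47), beside 9.83% of all genes lower and 16.3% higher. The same 4 were higher at 5 than at 3 dpi, by 2.98, 1.97, 1.55 and 1.17, beside 8.09% of all genes. The sum over the 10 was 523 in MEF, 422 at 3 dpi and 580 at 5 dpi. Of 6 adipocyte markers, 4 were measured in each of these comparisons. At 3 dpi over MEF 2 were lower, with a median of -1.02, beside 9.83% of all genes, and Plin1 lay above MEF (0.55, a bound). At 5 over 3 dpi 3 were higher and none lower, with a median of 1.63, beside 8.09% of all genes. The largest differences were those of Lpl, a lipoprotein lipase, with -4.30 at 3 dpi over MEF and 3.45 at 5 over 3 dpi. Of 9 proliferation genes, 7 passed 2-fold upward at 3 dpi over MEF with a median of 1.5 for the list, beside 16.3% of all genes, and none of the 9 passed 2-fold at 5 over 3 dpi, where their median was -0.47. The part of these shifts in the values of the cholesterol genes was not tested.

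Of 48 other genes of lipid and sterol handling in 6 lists, the list of fatty acid synthesis had the medians closest to those of the sterol enzymes at 3 dpi over MEF (0.47) and at 5 over 3 dpi (-0.72). Of its 12 genes 3 rose at 3 dpi over MEF and none fell, the stearoyl-CoA desaturase Scd1 (1.49), the fatty acid desaturase Fads2 (1.46) and the elongase Elovl6 (1.08), and 5 fell at 5 over 3 dpi and none rose. The shares over all genes were 16.3% higher at 3 dpi over MEF and 4.60% lower at 5 over 3 dpi. In neurons Fads2 was 2.68 above MEF, and Gpam, which starts glycerolipid synthesis, was 1.27 above MEF on the array labelled 7 dpi. None of the 10 genes of the isoprenoid branch, which takes its substrate from the same mevalonate steps, passed 2-fold at 5 over 3 dpi. Of these 10, 7 lay below 0 in that comparison, with a median of -0.22. In this branch Pdss1, of ubiquinone synthesis, was 1.11 above MEF at 3 dpi, and Nus1, of dolichol synthesis, and Icmt, a prenylcysteine methyltransferase, differed by -1.94 and -1.88 in neurons over MEF. None of the 5 genes of SREBP processing and enzyme turnover passed 2-fold at 5 over 3 dpi, and the proteases Mbtps2 (1.17 at 5 dpi) and Mbtps1 (-1.63 in neurons) held the largest differences from MEF. With 8.09% of all genes higher and 4.60% lower at 5 over 3 dpi, none among 10 or 5 genes lies near the share over all genes.

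Among 9 genes of uptake and lysosomal handling, Lrp8, a lipoprotein and reelin receptor of neurons, differed from MEF by 2.87 at 3 dpi, 0.76 at 5 dpi, 2.33 at 7 dpi and 5.23 in neurons. It fell by 2.11 at 5 over 3 dpi, the direction of the enzymes. Soat1, which esterifies cholesterol for storage, differed from MEF by -1.15, -1.89 and -2.35 at 3, 5 and 7 dpi and by -2.80 in neurons. Lipa, the lysosomal lipase, differed from MEF by -1.99 at 3 dpi and -4.03 in neurons, and the lysosomal carrier Npc2 by -2.94 in neurons. Both Soat1 and Lipa are abundant in macrophages, whose markers were lower on the same arrays, and the part of macrophages in these values was not tested.

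Among other LXR targets and partners, the lipoprotein component Apoc1 differed from MEF by -3.08, -4.46, -2.78 and -2.44 at 1, 3, 5 and 7 dpi and by -1.79 in neurons. The phospholipid transfer protein Pltp differed by -1.03, -2.69, -1.78 and -1.36 from 1 to 7 dpi and by 1.84 in neurons. Both shared with Abca1 a lowest level at 3 dpi, although at 5 over 3 dpi only Apoc1 (1.67) passed 2-fold. Abca5, a transporter of late endosomes, was instead above MEF by 1.60 at 5 dpi and 1.66 on the array labelled 7 dpi.

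The 4 hydroxylases, which make the oxysterols and their breakdown products, went separate ways. Ch25h, cholesterol 25-hydroxylase, was higher than MEF by 1.61, 2.11, 2.66 and 2.55 from 1 to 7 dpi and by 1.27 in neurons. Cyp7b1, which clears oxysterols, differed by 0.15, -2.69, 0.58 and 1.87 from 1 to 7 dpi and by -2.59 in neurons, and rose by 3.27 at 5 over 3 dpi. Cyp27a1, the sterol 27-hydroxylase, was lower than MEF on each later array, with differences from -2.23 at 5 dpi to -2.88 on the array labelled 7 dpi, and Cyp46a1, the 24-hydroxylase of neurons, was higher by 1.30 in neurons.

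**Figure D5:**
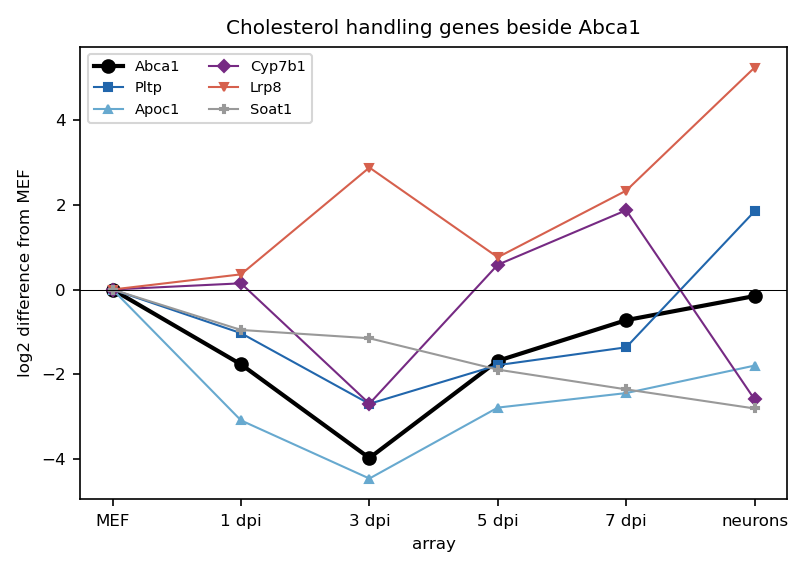
Log2 difference from MEF of Abca1 and of 5 genes of the other lists, against array; each point compares 2 arrays. Abca1, Pltp, Apoc1 and Cyp7b1 lie between -4.46 and -2.69 at 3 dpi, where Lrp8 lies at 2.87.

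The genes whose profile was most like the median of the 18 enzymes were sought among 9313 candidates by Pearson's r over the 6 arrays, as a description. Among the 10 closest were Fads1, a fatty acid desaturase (0.990), Aida (0.980) and Aacs, acetoacetyl-CoA synthetase (0.980), followed by Dph6 (0.949), Faap24 (0.938), Arhgap36 (0.934), Nudt17 (0.919), Hsd17b12 (0.914) and Prkar2a (0.910). Fads1 differed by 0.88 at 3 dpi over MEF and by -1.26 at 5 over 3 dpi, and Aacs by 0.80 and -1.32. The 6 points share the arrays with the enzymes, and a gene with a peak at 3 dpi on a single array gives a high value.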

How the data were processed

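RNA of 6 mouse cell samples was labelled with Cy3 and measured on 1 Agilent array each. Spot intensity values were extracted by the authors with Agilent Feature Extraction (11.0.1.1; the version is from the submitters' processing notes). The intensity column used is the processed signal, already corrected for background, per the file headers. The series table deposited by the authors holds log2 values whose 75th percentile lies at about 0 on each array, with column medians from -3.30 to -2.50; its values ran in the same direction as those computed here (r of at least 0.99998), without gene centring, and the step that made it was not given in the sources used here.

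Each processed signal was put on the log2 scale, the 75th percentile of the array was subtracted and spots of a probe were averaged without outlier spots. Of 39409 probes, 27222 (69.1%) were named through their accession with RefSeq tables, for 20656 genes. For the 5469 genes with several probes the brightest was used. A difference was counted where a probe was well above background on either array, and as a bound where only 1 was. The 9 comparisons and the 2-fold call have no test, since each group has 1 array. The calling code was tested on simulated data. The named genes are all 30 members, up to 4 genes per further list with the largest differences from MEF, the markers that moved and the 10 profiles most alike; a few of these are not reported here. Members and lists were chosen with earlier results of these data known. Alternatives were normexp correction (offset 50, on median signals, limma 3.58.1 in R 4.3.3), quantile normalization, median centring, the authors' table, the mean over probes, 2 other filters on dim probes and a 1.5-fold call. Other steps used Python 3.11.15, numpy 2.4.6 and pandas 2.3.3.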

Additional observations from a re-analysis of the deposited data

Results flagged for a closer look

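Insig1 moved in opposite directions against MEF on different arrays: its log2 difference was 1.53 at 3 dpi over MEF and -1.5 for neurons over MEF, a gap of 3.03. The gap was not tested, since each group has 1 array, and both differences share the MEF array and cross scans.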

How the results depend on the processing

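No paired analysis was possible because each group has 1 array. Over 8 alternatives no difference of at least 2-fold changed sign. All 18 enzymes were lower at 5 than at 3 dpi under every alternative, 17 of them 2-fold under normexp (Dhcr7 at -0.79) and under quantile normalization (Hmgcs1 at -0.97), and Abca1 was lowest at 3 dpi under all. The members lower at 5 over 3 dpi numbered 19 to 23. The counts over all genes and the comparisons with MEF and neurons depended more on the scaling, because the median of all genes over MEF was -0.10, -0.20, -0.28 and -0.59 at 3, 5 and 7 dpi and in neurons after median centring, against 0.20, 0.20, 0.16 and 0.26 without it.

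With normexp, genes higher over MEF numbered 524, 1270, 1700 and 1505 at 1, 3, 5 and 7 dpi, genes higher at 3 over 1 dpi 417 and at 7 over 5 dpi 636, genes lower at 5 over 3 dpi 508 and at 7 over 5 dpi 472, and 3 members were higher at 7 over 5 dpi. With quantile normalization, genes higher over MEF numbered 1544, 1605 and 1407 at 3, 5 and 7 dpi and 3270 for neurons, and 625 at 3 over 1 dpi. The efflux median was then 0.047 at 7 dpi over neurons and -0.042 for neurons over MEF, and the contrast of both sides 0.39 and -0.24. With median centring, genes higher over MEF numbered 1773, 1765 and 1552 at 3, 5 and 7 dpi and 2953 for neurons, 748 at 3 over 1 dpi and 4074 at 7 dpi over neurons, and genes lower over MEF 2654 at 5 dpi, 2151 at 7 dpi and 6845 for neurons. The efflux medians were then -1.39, -1.04 and -1.16 at 3, 5 and 7 dpi over MEF, -1.20 for neurons over MEF, -1.07 at 3 over 1 dpi and 0.72 at 7 dpi over neurons. The synthesis medians were 0.74, -0.97, -0.26, -1.05, 0.92 and 0.81 in the same order. Members higher numbered 7 at 3 over 1 dpi, 3 at 7 over 5 dpi and 0 for neurons over MEF, and members lower 4 at 3 over 1 dpi, and 14, 6 and 17 at 5 dpi, 7 dpi and neurons over MEF. Without a filter, 2447 genes were higher at 3 over 1 dpi and 1456 lower at 7 over 5 dpi. With a 1.5-fold call, members higher numbered 16 and 3 at 3 and 7 dpi over MEF, 2 at 5 over 3 dpi, 13 at 7 over 5 dpi and 10 at 7 dpi over neurons, and members lower 5, 14, 6 and 12 at 1, 5 and 7 dpi and neurons over MEF and 4 at 3 over 1 dpi. All genes were not counted at 1.5-fold, so these member counts have no share to stand beside, and the 2-fold shares do not apply to them. The share of higher genes among those called was 62.3% at 3 dpi over MEF, against 42.7% after quantile normalization, and 41.5% at 7 dpi over neurons, against 60.3% after median centring.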
